A study of Arabidopsis thaliana with 51 samples.

Results

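The cytosines described here are the CHH sites (H is A, C or T) of the distal part of the AGp target, from 10380602 to 10381575 in TAIR10, measured by bisulfite sequencing of flower DNA from Arabidopsis thaliana. The table lists 241 such entries among 5709 cytosine entries, of which 4378 are CHH. Of the 241, 239 have a coordinate that no other entry shares, and 223 could be placed in every library after the rows had been brought into register (128 on the plus and 95 on the minus strand). These 223 are the sites of every value below. Distal means the lower coordinates, the end farther from the AGe target domain, which lies at 10384302 to 10387101. The table names no chromosome. The construct names point to AG (AT4G18960), a MADS-box gene of floral organ identity on chromosome 4, and the coordinates were read as its locus. Its neighbours in the gene table of TAIR10.1 are the protein-coding genes AT4G18950 and AT4G18970. Whether the stretch is exonic, intronic or intergenic was not determined.

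The limits of the stretch were chosen from measured values. Its lower end is that of the AGp domain (10380602 to 10382801), which was defined by 100-bp windows whose mean reached 10% in the Col AGp//AGe sMf library. Its upper end is the last cytosine of a segment listed at 0 in M317 and M318 libraries. Levels of the AGp//AGe sMf library are therefore given as a description without a test. In that library the site last outside the lower end, at 10380600, and the first inside, at 10380603, were both at 0%, and the windows before and after this limit were at 1.67% and 12.0% over all contexts. At the upper end the last site inside, at 10381575, was at 41% and the first outside, at 10381577, at 36%.

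In plants, CHH sites are methylated mainly by RNA-directed DNA methylation (RdDM), in which small interfering RNAs and scaffold transcripts guide the methyltransferase DRM2 to matching DNA, and by CMT2 in heterochromatin. CHH sites lack a methylated partner on the opposite strand, so the mark has to be placed again after each replication. MET1 maintains CpG methylation in the form of symmetric pairs, and CMT3 acts at CHG. DDM1 is a chromatin remodeller needed for methylation of heterochromatin. SUVH1 is a reader of methylated DNA linked to transcription, and HDP1 and HDP2 are partners in a complex that aids active demethylation. ARE stands for anti-RdDM element in the title of the series.

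Plants had been transformed with transgene cassettes, and each library pooled young flowers of 5 to 10 lines that shared a flower phenotype. The groups are named as in the labels, which do not spell out AGe, AGp, Ctr, UF2, UF4, sMf or rMf. In Col plants there were 5 libraries without a construct and with Wt flowers (Col Wt), 3 of AGe with rMf flowers, 2 of AGp with Sterile flowers, 2 of ARE//AGe with Wt flowers, and 1 each of AGp//AGe sMf, AGp//AGe rMf, UF2//AGe, UF4//AGe, Ctr//AGe Wt and Ctr//AGe rMf. For UF2//AGe and UF4//AGe the label fields contradict each other on sMf or rMf. There was 1 library each for the alleles Met1-1 and ddm1-1 (set B) and suvh1-2, hdp1-1 and hdp2-1 (set C) without a construct and with Wt flowers. ARE//AGe was profiled in 9 libraries with an allele, sMf and rMf in each allele except suvh1-2, which had sMf alone. Ctr//AGe rMf was profiled in Met1-1 and in ddm1-1. No ARE//AGe library combined Col with sMf or rMf flowers, or an allele with Wt flowers. Which constructs hold sequence of the stretch was not determined. Where one does, construct and endogenous copies cannot be told apart by their reads, and a level is an average over both. Because each library is a pool, the p-values of the Col contrasts measure the spread between pools, including pools of different sets. The level tests over alleles permute the signs of 4 or 5 allele differences. Their p-values measure how alike these differences are across alleles. Each allele has 1 library per construct and phenotype, so the spread between pools of the same kind does not enter these level tests.

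Levels are whole percent per cytosine, and the deposited table gives no read counts, so the depth is unknown for every library. A listed 0 may mean no methylation or no reads. The unexplained entry rc was treated as missing and covered 0 to 126 of the 223 sites per library. The 17 M317 and M318 libraries, of which 13 were listed at 0 at all 223 sites and none had a mean above 0.368%, were left out of every contrast. The titles sort the libraries into sets A, B and C, and the columns fall into 5 blocks of rows.

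Without a construct the stretch carried a short native patch of CHH methylation at its distal end. The Col Wt libraries had mean levels over the stretch of 1.03% and 1.61% in set A, 3.21% and 2.38% in set B and 2.21% in set C. Of the 17 sites with a Col Wt mean of at least 10%, 16 lay between 10380661 and 10380725. The other was at 10381371, where the mean of 12.5% came from 50% in replicate A of set B, and 3 other Col Wt libraries were at 0. Over the 17 sites from 10380661 to 10380725 the Col Wt libraries ranged from 13.5% to 21.9%. CpG in the first 200 bp (6 sites) ranged from 39.2% to 69.2% in these libraries. Beyond the first 200 bp and up to 10381021 the CHH mean was 0.403% ± 0.424 (SD, n = 5), and 158 of the 223 sites were at 0 in every Col Wt library with a level there.

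AGp Sterile flowers were methylated over the stretch beyond its first 200 bp, and within these 200 bp neither library was above the highest Col Wt library. The mean CHH level was 20.7% in replicate 1 and 36.4% in replicate 2, against 1.03% to 3.21% in the 5 Col Wt libraries, so the groups did not overlap. The difference was 26.5 percentage points (28.6% ± 11.1, SD, n = 2, against 2.08% ± 0.823, n = 5), with a two-sided exact permutation p = 0.0476, the smallest that 21 arrangements allow, and 0.125 after Benjamini-Hochberg adjustment over the 8 level tests. Restricted to set A the difference was 27.3 percentage points. The libraries of column block 1 alone gave 19.7, and those of column block 2 gave 34.8, with 1 library on each side. Leaving out any of the 7 libraries put the p above 0.05, since fewer arrangements remain. Sites above 0 in both AGp Sterile libraries numbered 187, sites at 0 in both 14, and replicate 2 was the higher at 197 sites and the lower at 11.

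**Figure D1:**
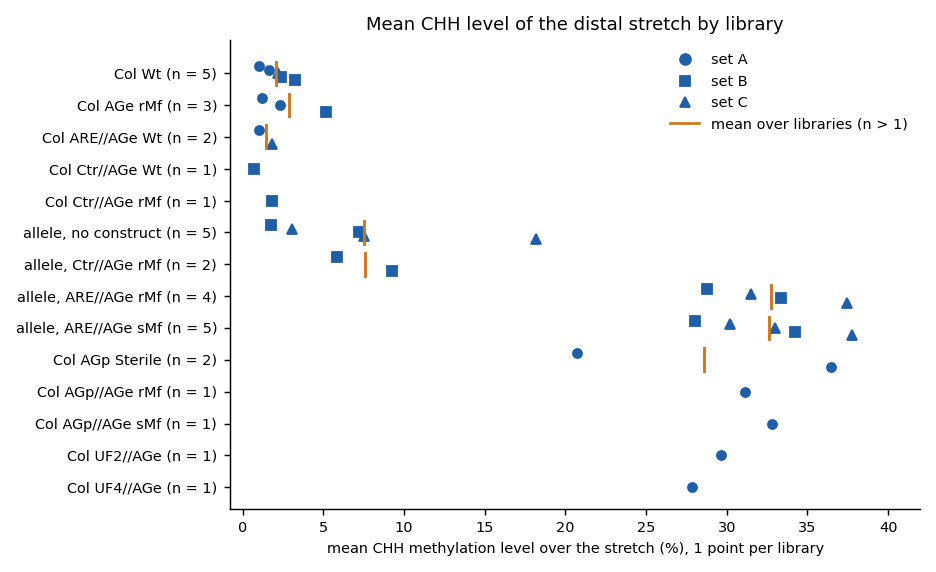
Mean CHH level over the 223 sites (x axis, percent), 1 point per library, by group, with marker shape for the set and a bar for the mean of groups with more than 1 library. AGp Sterile, AGp//AGe, UF2//AGe, UF4//AGe and ARE//AGe with an allele lie at 20.7% or above, and the Col Wt libraries at 3.21% or below.

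At single sites, limma (trended empirical Bayes on log2 odds, Benjamini-Hochberg adjusted p under 0.05 over the whole table) tested 216 of the 223 sites in Col and called 168 higher and 0 lower in AGp Sterile, while 23.7% of all 2003 cytosines tested were called. Sites had to lie above 0 in at least 2 of the 12 fitted libraries. Of the 216, 173 passed only with the AGp Sterile libraries counted, so the count describes the stretch and is no support for it. With no such filter 160 of 223 were called. The median log2 odds difference was 5.05 over the tested sites of the stretch and 0 over all tested cytosines. The number called was 58 without AGp Sterile replicate 1, 36 without replicate 2, and 7 when a site had to be above 0 in at least 4 libraries, which left 35 sites to test.

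The 5 called sites with the largest gain lay on the minus strand between 10381160 and 10381196. The site at 10381196 was at 68% and 87% in the AGp Sterile libraries and at 0 in the 3 Col Wt libraries with a level there (limma adjusted p = 1.96e-06). At 10381177 the AGp Sterile levels were 68% and 84%, at 10381160 64% and 82%, at 10381164 66% and 80%, and at 10381171 59% and 87%, each against 0 in the same 3 Col Wt libraries. The limma adjusted p-values of these 4 were 0.00444, 1.27e-06, 6.15e-07 and 7.84e-06. All 5 sites were named for their gain, so the p-values describe them and are no support. The called site at 10381190 (63% and 83%) had the same mean of 73% as the last 3, and ties went to the lower coordinate. A log2 odds difference against a group at 0 depends on the offset and is no bound. The sites at 10380603, 10380604 and 10380622 are the first by coordinate of the 14 sites at 0 in both AGp Sterile libraries.

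The profile of AGp Sterile had peaks and troughs rather than a plateau. In 100-bp windows, replicate 1 was at 47.5% and 41.4% from 10381102 to 10381201 and from 10381202 to 10381301, and replicate 2 at 66.9% and 55.4%. In the Col Wt libraries the same windows were at 0.484% ± 0.702 and 0.815% ± 1.22 (SD, n = 5). On both sides the level fell, to 14.9% and 30.5% in the window from 10381002 and to 10.9% and 24.5% in the window from 10381402. The replicates were far apart in the window from 10380802, at 3.2% in replicate 1 and 29.3% in replicate 2, and in the window from 10380902, at 16.6% and 44.1%. In the first window they were at 9.08% and 7.5%, inside the range of the Col Wt libraries (3.83% to 12.3%), and in the second at 2.69% and 6.44%, below all 5 Col Wt libraries (7.06% to 11.2%). Pearson's r between the replicates across the 223 sites was 0.845, a description over neighbouring sites of the same molecules.

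**Figure D2:**
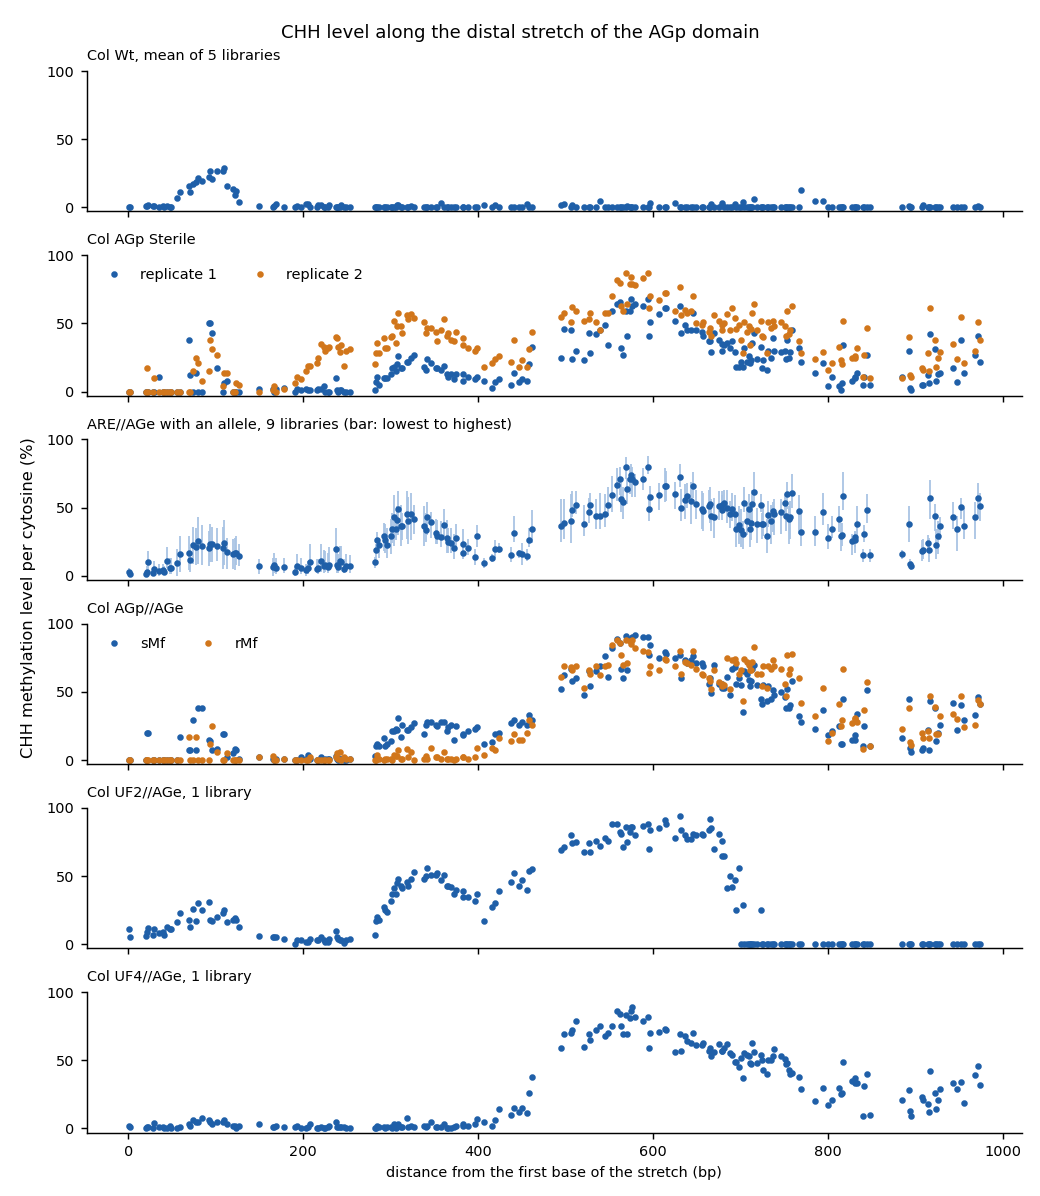
CHH level of each of the 223 sites (y axis, percent) against the distance from the first base of the stretch (x axis, bp), in 6 panels for Col Wt, Col AGp Sterile, ARE//AGe with an allele, Col AGp//AGe, Col UF2//AGe and Col UF4//AGe. Col Wt shows only the native patch near the start, UF2//AGe drops to 0 late in the stretch, and UF4//AGe stays low in its first part.

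In Col plants with AGe alone, or with ARE//AGe and Wt flowers, levels over most of the stretch were as low as in Col Wt. The AGe rMf libraries of Col were at 2.32% and 1.17% in set A and 5.14% in set B, overlapping Col Wt (difference 0.791 percentage points, exact permutation p = 0.482, adjusted 0.551). It was 0.428 within set A and 2.35 within set B, and -0.435 within column block 2. The high library of set B had its excess in the native patch, where it was at 48.5% against 21.8% and 9.71% in the other AGe rMf libraries. limma called 1 site, higher, of 216, against 37.5% of all cytosines tested. That site, at 10380658 inside the first window, was at 20%, 25% and 36% in AGe rMf and at 0 to 22% in Col Wt (limma adjusted p = 0.0451). No site was called in 5 of the 8 fits that left out 1 library, and without the set B library of AGe rMf the single call was lower. The ARE//AGe Wt libraries of Col were at 1.03% in set A and 1.81% in set C, within the Col Wt range (difference -0.666, exact permutation p = 0.429, adjusted 0.551). limma called 1 site of 216, against 0.949% of all cytosines tested. It was the site at 10380966, at 9% and 6% in ARE//AGe Wt and at 0 in all 5 Col Wt libraries (limma adjusted p = 0.00913). These comparisons share the Col Wt libraries with that of AGp Sterile.

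With an allele, every ARE//AGe library was methylated over the stretch. The sMf libraries were at 28.0% in Met1-1, 34.2% in ddm1-1, 30.2% in suvh1-2, 33.0% in hdp1-1 and 37.8% in hdp2-1. The rMf libraries were at 33.3% in Met1-1, 28.8% in ddm1-1, 37.5% in hdp1-1 and 31.5% in hdp2-1. Without a construct the same alleles were at 1.76% in Met1-1, 7.21% in ddm1-1, 18.2% in suvh1-2, 7.48% in hdp1-1 and 3.02% in hdp2-1. Paired by allele, the difference was 24.9 percentage points and positive in 5 of 5 alleles, from 12.1 in suvh1-2 to 31.6 in hdp2-1 (two-sided exact sign-flip permutation p = 0.0625, the smallest that 5 pairs allow, adjusted 0.125). The libraries of an allele lie in the same set and column block. Since the Col and the allele libraries of ARE//AGe also differ in flower phenotype, allele and phenotype cannot be told apart in that contrast.

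In each allele except hdp1-1, sites were missing without a construct and not with ARE//AGe. The Ctr//AGe libraries, described below, had missing sites as well. The libraries without a construct had 58, 92, 3, 0 and 37 rc entries in Met1-1, ddm1-1, suvh1-2, hdp1-1 and hdp2-1, and the 9 ARE//AGe libraries with an allele had 0. The part of these entries in the difference was not tested. In hdp1-1, where no site was missing in either, the difference was 27.7 percentage points.

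limma, with the allele as a block over 16 libraries, tested all 223 sites and called 167 higher and 0 lower with ARE//AGe than without a construct, while 38.7% of the 2771 cytosines tested in the table were called. Of the 223, 54 passed the filter only with the ARE//AGe libraries counted, so this count too is no support, and with no filter 146 were called. The median log2 odds difference was 3.66 over the stretch and 0.826 over all tested cytosines. The sites with the largest called difference again lay on the minus strand near the peak. At 10381233 the 9 ARE//AGe libraries ranged from 65% to 82%, and the libraries without a construct were at 0 in Met1-1 and hdp2-1, 9% in hdp1-1 and 44% in suvh1-2 (limma adjusted p = 0.000524). The sites at 10381171, 10381196, 10381164 and 10381216 had ARE//AGe means of 79.8%, 80.1%, 70.9% and 65.9%. Their means without a construct were 22.0%, 23.0%, 19.3% and 15.3% over the 3 or 4 libraries with a level (limma adjusted p = 0.00875, 0.0102, 0.0084 and 0.00119). In the 9 libraries 216 of the 223 sites were above 0 in every library, and Pearson's r across sites between pairs of them ranged from 0.863 to 0.986 over 36 pairs.

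**Figure D3:**
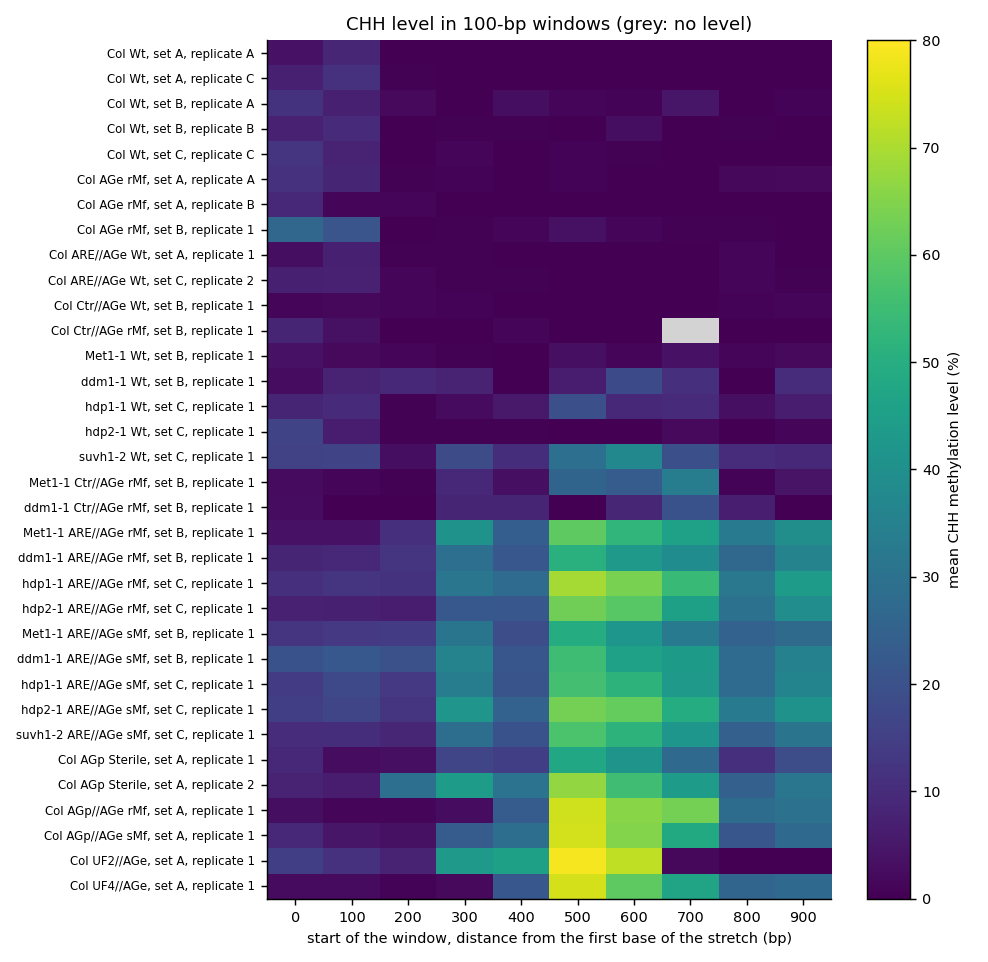
Mean CHH level (colour, percent) in the 100-bp windows of the stretch (x axis, start of the window in bp from its first base) for each of the 34 libraries outside M317 and M318 (rows), the last window being shorter. The sixth and the seventh windows (from 10381102 to 10381301) are the brightest in every ARE//AGe library with an allele and in AGp Sterile, and grey marks a window without a level.

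The site pattern of ARE//AGe with an allele was compared with that of AGp Sterile, with which it shares neither plants nor set. Across the 223 sites Pearson's r between the means of the 2 AGp Sterile and the 9 ARE//AGe libraries was 0.927. Of the 168 sites called in AGp Sterile 143 were also called with ARE//AGe, 85.1% of the first list and 85.6% of the second, beside the 74.9% of all 223 sites that were called with ARE//AGe. Both groups had a smaller peak in the window from 10380902, at 22.1% to 41.6% in ARE//AGe. The window from 10381002, before the main peak, was lower in each library, at 18.8% to 27.8% in ARE//AGe. The native patch was present too, at 6.88% to 33.0% in the ARE//AGe libraries.

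**Figure D4:**
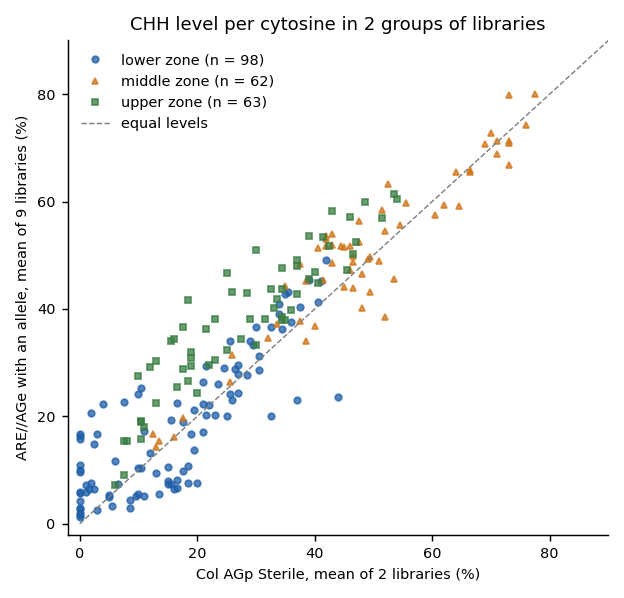
Level of each of the 223 sites as the mean of the 2 AGp Sterile libraries (x axis, percent) and of the 9 ARE//AGe libraries with an allele (y axis, percent), with the lower, middle and upper zones of the stretch marked and a dashed line for equal levels. All 63 sites of the upper zone lie above the dashed line (zone means 37.8% in ARE//AGe and 27.9% in AGp Sterile), and the middle zone holds the highest sites in both groups.

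With Ctr//AGe the levels were lower than with ARE//AGe in both alleles that had it. The Ctr//AGe rMf libraries had a mean of 9.23% with Met1-1, of 5.87% with ddm1-1 and of 1.82% in Col plants, with 47, 126 and 88 rc entries, and Col Ctr//AGe Wt was at 0.696% with 52. ARE//AGe rMf was 24.1 percentage points higher than Ctr//AGe rMf in Met1-1 and 22.9 in ddm1-1. These differences are over unlike sites, since ARE//AGe rMf had a level at all 223. In ddm1-1 Ctr//AGe 97 sites had a level, 63 of them in the lower zone, described below. The part of the missing sites was not tested. With 2 alleles no level test was made. limma tested 184 of the 223 sites and called 26, all higher in ARE//AGe rMf, against 1.8% of the 2670 cytosines tested. At the called site 10381573 the 4 ARE//AGe rMf libraries were at 68%, 61%, 64% and 59% and Met1-1 Ctr//AGe was at 0. The called sites at 10381130 and 10381554 were at means of 56.5% and 55.3% in ARE//AGe rMf and at 0 in Met1-1 Ctr//AGe. At all 3 sites ddm1-1 Ctr//AGe had no level, so each comparison is with 1 library. Elsewhere Met1-1 Ctr//AGe was methylated, with 70 of the 176 sites that had a level above 0 and the middle zone, described below, at 20.7%. The count was 0 or 1 when any of the 6 libraries was left out.

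Within ARE//AGe the flower phenotypes sMf and rMf differed in no single direction in the CHH mean of the stretch, while CHH in the first 200 bp, CHG and CpG were higher in sMf in each allele that had both. The mean difference of sMf from rMf was -5.31 percentage points in Met1-1, 5.45 in ddm1-1, -4.45 in hdp1-1 and 6.25 in hdp2-1, on average 0.484 (33.3% ± 4.03 against 32.8% ± 3.65, SD, n = 4; exact sign-flip permutation p = 0.75, smallest possible 0.125). limma called 0 of 223 sites, and 0% of the 2771 cytosines tested, with 2 of the sites at an unadjusted p under 0.05. In the first 200 bp (40 CHH sites) sMf was higher in 4 of 4 alleles, at 12.4%, 20.8%, 15.4% and 15.6% in Met1-1, ddm1-1, hdp1-1 and hdp2-1, against 4.0%, 8.4%, 11.4% and 7.08% in rMf. The 6 CpG sites there were at 27.5%, 53.8%, 40.7% and 25.0% in sMf and at 7.17%, 9.33%, 16.8% and 11.8% in rMf. These differences of 8.33 ± 3.45 points in CHH and 25.5 ± 13.4 in CpG (SD, n = 4) were chosen after the values had been seen, and each had an exact sign-flip p of 0.125, the smallest possible (adjusted 0.318 over 28 unplanned tests). CpG beyond the first 200 bp was also higher in sMf in 4 of 4, at 16.3%, 45.0%, 27.2% and 20.1% against 12.7%, 12.1%, 16.6% and 12.7% in rMf. CHG over the stretch was 7.67 ± 6.19 points higher and CHH in the lower zone, described below, 5.99 ± 4.83 (exact sign-flip p = 0.125 each, adjusted 0.318). The lower zone contains the first 200 bp, so its value is no separate result. Without them its difference was -3.8 points in Met1-1, 6.8 in ddm1-1, 1.8 in hdp1-1 and 12.8 in hdp2-1. In the middle zone CHH in sMf was higher in 2 of 4 alleles.

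**Figure D5:**
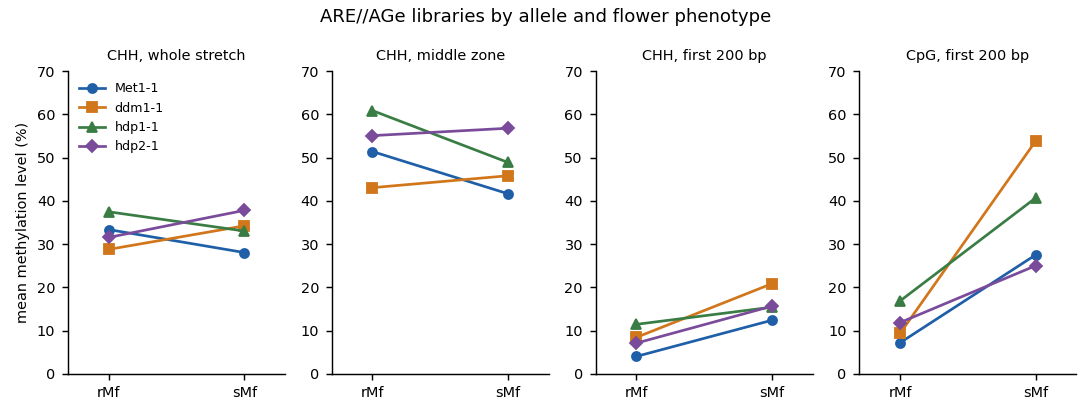
Mean level (y axis, percent) of ARE//AGe rMf and sMf libraries, 1 line per allele, for CHH over the stretch, CHH in its middle zone, and CHH and CpG in the first 200 bp. Lines cross in the first 2 panels, and in the last 2 all 4 alleles are higher in sMf.

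The alleles without a construct differed in where they were methylated. In suvh1-2 Wt 184 sites were above 0, the window from 10381202 was at 37.4%, and its site pattern followed that of suvh1-2 ARE//AGe (r = 0.607 over 220 sites). In hdp1-1 Wt 162 sites were above 0, with a highest window of 19.4% (r = 0.551 over 223 sites with hdp1-1 ARE//AGe). The native patch was at 32.2% in suvh1-2 Wt, 17.6% in hdp1-1 Wt and 23.4% in hdp2-1 Wt. Beyond the first 200 bp hdp2-1 Wt was at 2.0% or less in every window. Its pattern was like that of Col Wt of set C (r = 0.791 over 186 sites) and unlike its own ARE//AGe (r = -0.202). The patch was delimited by its level in Col Wt, so that Col Wt is high there by choice. Met1-1 Wt and ddm1-1 Wt were at 5.82% and 6.0% in the native patch, below the 13.5% of the lowest Col Wt library. Low levels there were not particular to these alleles. Among Col libraries with a construct, Ctr//AGe Wt of set B was at 1.65% and AGe rMf of set A, replicate B, at 9.71%, while others lay above 13.5%. Each allele without a construct is a single library, and the correlations are descriptions across sites of the same reads.

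The single libraries of UF2//AGe and UF4//AGe divided the stretch. UF2//AGe had a mean of 29.7% and UF4//AGe of 27.8%, but each was low at a different end. In UF2//AGe the last run of 5 sites at 10% or more ended at 10381300. The 10 sites up to it had a median of 53% and the 10 after it a median of 0, and of the 63 sites beyond, 2 were above 0, the highest at 29%. In UF4//AGe the first run of 5 such sites began at 10381026. The 10 sites before it had a median of 2.5%, the 10 from it on a median of 15%, and the 98 before it had a mean of 1.91%, with 75 above 0 and none above 8%. These edges, chosen after seeing the values, cut the stretch into a lower zone (98 sites, 10380603 to 10381021), a middle zone (62 sites, 10381026 to 10381300) and an upper zone (63 sites, 10381302 to 10381575).

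In the lower zone UF2//AGe was at 21.6% and UF4//AGe at 1.91%, in the middle zone at 71.7% and 60.6%, and in the upper zone at 0.857% and 35.8%. The middle zone was thus high in both, and their site levels there had Pearson's r of 0.754 over 62 sites. It was also the highest zone in AGp Sterile, at 40.02% and 56.48%, and in the ARE//AGe libraries with an allele, at 50.3% ± 6.41 (SD, n = 9), against 18.3% ± 4.0 in the lower and 37.8% ± 4.77 in the upper zone. In the Col Wt libraries it was at 0.66% ± 0.699 (SD, n = 5). In AGp//AGe the middle zone was at 63.8% in sMf and 63.1% in rMf, while in the lower zone sMf was at 11.5% and rMf at 2.2%. In AGp Sterile limma called 48 of the 91 lower, 61 of the 62 middle and 59 of the 63 upper sites tested. With ARE//AGe it called 63 of 98, 52 of 62 and 52 of 63. Over all cytosines tested, 23.7% of 2003 and 38.7% of 2771 were called in these contrasts. Of the tested sites of the stretch, 173 of 216 passed the filter only with the AGp Sterile libraries counted. With ARE//AGe this held for 54 of 223. The counts by zone therefore describe the zones and are no support for them.

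Against the proximal rest of the AGp domain (279 CHH sites) the stretch differed by construct. In the ARE//AGe libraries with an allele it was higher, at 32.5% against 12.8% when averaged over 5 alleles, a difference of 19.7 percentage points. It was positive in 5 of 5 (exact sign-flip permutation p = 0.0625, the smallest possible, adjusted 0.125). These libraries had levels at 156 to 252 of the 279 proximal sites and at all 223 distal ones, and the part of the missing proximal sites was not tested. AGp Sterile was at 20.7% in the stretch and 19.5% in the rest in replicate 1, and at 36.4% and 28.5% in replicate 2. This distal excess was 3.01 points above that of Col Wt (exact permutation p = 0.238, adjusted 0.381), and -0.364 without replicate 2. UF2//AGe fell from 29.7% to 0.143% and UF4//AGe from 27.8% to 3.6%. AGp//AGe rMf was at 31.2% in the stretch and 18.4% in the rest.

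Strand and sequence class gave smaller gaps. The mean of the plus strand minus that of the minus strand was below 0 in each of the 9 ARE//AGe libraries with an allele, from -2.62 to -0.965 percentage points (allele average -1.84 ± 0.448, SD, n = 5; exact sign-flip p = 0.0625, the smallest possible, adjusted 0.125). It was -0.3 with the median over sites (exact p = 0.875) and -1.15 with rows as deposited (exact p = 0.438). The difference was -8.12 and -4.51 points in AGp Sterile, -11.9 in UF2//AGe and -3.9 in UF4//AGe, and 0.559 in AGp//AGe rMf. The strands are spread unevenly along the stretch, with most sites of the upper zone on the plus strand. UF2//AGe was at 0.857% in that zone. Strand differences within zones were not computed, so strand and position are not separated in these values. The base after a site was inferred from the cytosines listed on each strand, not read from the genome. A base not listed was taken as A or T. Sites whose next base is C (44) were lower than those followed by A or T (179) in 14 of 14 methylated libraries, by 4.71 to 9.68 points. The classes are spread unevenly over the zones. Within the lower and upper zones the order was the same in 14 of 14 libraries, and within the middle zone, where 9 sites are followed by C, it was the opposite in 14 of 14. Some of these libraries were near 0 in a zone. For next base C and for A or T, UF2//AGe was at 0 and 1.1% in the upper zone, and UF4//AGe at 1.19% and 2.1% in the lower. In ARE//AGe with an allele the middle-zone means were 54.2% for next base C and 49.6% for A or T, and in the upper zone 28.0% and 40.6%.

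The other contexts of the stretch followed CHH in part. CHG (18 sites) was at 27.1% and 37.7% in AGp Sterile, against 3.0% to 4.41% in Col Wt (difference 28.8 points, exact permutation p = 0.0476, the smallest possible, adjusted 0.267 over 28 unplanned tests), and at 31.1% to 47.1% in ARE//AGe with an allele. CpG (15 sites) was at 14.4% and 30.7% in AGp Sterile and at 15.7% to 27.7% in Col Wt, which overlap. Beyond the first 200 bp (9 CpG sites) AGp Sterile was at 7.33% and 33.4% and the Col Wt libraries at 0 to 0.667%, a difference that was not tested. In the first 200 bp CpG was lower in AGp Sterile, at 25.0% and 26.7% against 39.2% to 69.2% in Col Wt (exact permutation p = 0.0476, adjusted 0.267, unplanned). UF4//AGe was at 6.0% there, and the ARE//AGe rMf libraries with an allele at 7.17% to 16.8%.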

How the data were processed

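Per the labels, genomic DNA of pooled young flowers was bisulfite treated and sequenced by BGI. Tools in the submitters' processing notes are FastQC 0.11.9, HISAT2 and Bismark, with the build TAIR10 and no roles. The deposited table gives, per the file headers, context, coordinate and 51 library columns of methylation levels in whole percent, whose sign marks the strand. It gives no counts, so no depth, interval or detection limit could be computed. All value columns were mapped to samples.

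Rows of column blocks 2 to 5 slip against the coordinates and were realigned by sign with a hidden Markov model (sign error rate 0.003, rate of displacement change 0.004, displacements up to 40 rows, least posterior 0.9). Before this step 79.4%, 57.5%, 50.7% and 56.0% of the compared CHH rows of the stretch had the sign of their strand, and 100% after it. Only sites placed in all 5 blocks were used. The procedure was tested on simulated displacements, and limma on simulated shifts at known sites.

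Mean levels were compared by two-sided exact permutation of libraries, or of signs over alleles, adjusted over 8 tests. Further tests over zones and contexts were unplanned. For single cytosines, limma 3.58.1 (R 4.3.3) was fitted to log2 odds of the level with an offset of 0.01 added to both shares, with a filter of above 0 in at least 2 fitted libraries and Benjamini-Hochberg adjustment over the whole table. Col groups entered 1 fit of 12 libraries without covariates, and alleles 1 fit of 16. Label AGE was read as AGe.

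Named sites are the 5 called sites (3 in minor contrasts) with the largest difference, required not to overlap in the 2 main contrasts, and the 3 highest and lowest by AGp Sterile mean. As called sites were named by their difference, their limma p-values describe them and are no support. The sites, zones and rules were chosen with earlier results of these data known.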

Additional observations from a re-analysis of the deposited data

Results flagged for a closer look

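In the upper zone, 1 Col Wt library stood apart from the other 4, at 2.34% (set B, replicate A) against 0 to 0.147%. It was the only library so placed among 30 groups and quantities examined, and chance places about 1 in 20 in this way.

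The direction of the difference between sMf and rMf flowers in ARE//AGe depended on the allele. Over the stretch it was -5.31 percentage points in Met1-1 and -4.45 in hdp1-1, and 5.45 in ddm1-1 and 6.25 in hdp2-1. Each value rests on 1 library per phenotype, and whether the alleles differ was not tested.

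Of the 5 single Col libraries with a construct that neither a test nor the rule for the stretch used, 3 stood above the highest Col Wt library (3.21%), and Ctr//AGe rMf and Ctr//AGe Wt, at 1.82% and 0.696%, did not. The means over the stretch were 31.2% in AGp//AGe rMf, 29.7% in UF2//AGe and 27.8% in UF4//AGe.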

How the results depend on the processing

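Of 167 alternative values, 127 kept their direction and side of the threshold or, for counts, stayed within 1.5 times; in 1 of these, AGe rMf without its set B library, the single call turned from higher to lower. AGp Sterile against Col Wt had a mean difference of 27.3 in set A alone (exact permutation p = 0.333) and of 18.7 to 34.4 with 1 library left out, all above 0.05. Called sites numbered 7 with at least 4 libraries above 0 and 36 to 174 with 1 library left out, and its distal excess ranged from -0.364 to 6.38. For AGe rMf, the difference ranged from -0.34 to 1.64, and called sites numbered 2 with an offset of 0.05 or levels in percent, 0 with no filter, 4 in set A (1 higher, 3 lower), 3 in set A with the column block (1 higher, 2 lower), and 0 to 1 with 1 library left out. For ARE//AGe Wt in Col they numbered 0 with an offset of 0.05, with the stricter filter, with rows as deposited, in percent and with the set as a covariate, and 1 to 6 with 1 library left out. For ARE//AGe rMf against Ctr//AGe rMf they numbered 14 with no filter, 43 without the allele block, and 0 to 1 with 1 library left out. The sMf against rMf mean ranged from -1.44 to 2.42, was -1.17 without ddm1-1, 1.51 with rows as deposited and 2.0 with medians. With 1 library left on a side, limma takes its spread from the other groups. The stricter filter and the smaller sets test fewer sites or libraries; for the other moves the cause was not tested. Depth is unknown, so no site could be weighted by its coverage. No paired analysis was possible because the Col groups compared share fewer than 2 replicate labels, and M317 and M318 entered no contrast. The allele contrasts were paired by allele, and with the column block, which is no replicate label, as a covariate in set A 151 sites were called in AGp Sterile (149 higher, 2 lower).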
